A study of Mus musculus with 12 samples.

Results

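Chemoattractant receptors are the G protein-coupled receptors by which a macrophage senses where to go: formyl peptide, complement and chemokine receptors. The set described here is a list of 9 such genes, named for the family and not picked on a threshold. It was chosen with earlier results of these data known. Of the 9, 8 had a probe set in the annotation of the array (Fpr2, C5ar1, C3ar1, Ccrl2, Ccr1, Ccr2, Cx3cr1 and Cxcr4), out of 24675 genes with a probe set. The other listed gene is not analysed here. Mouse bone marrow-derived macrophages (BMDM) received hepcidin, the peptide hormone that controls iron export, and expression was read on 12 Affymetrix whole-transcript arrays in 4 groups of 3: hepcidin for 3 h, PBS for 3 h, hepcidin for 1 h and PBS for 1 h. All cells came from wild-type mice of 8 to 10 weeks, were grown for 7 days in medium with an L cell supernatant that supplies M-CSF, and stood in plain DMEM for 1 h before the addition. The labels give 1 µg/ml hepcidin in one protocol and 10 µg/ml in another, so the dose is not settled. The series asked how hepcidin acts on macrophage gene expression at each time. No label ties the arrays of a group to separate mice or cultures, so a p-value covers the spread between these arrays, which could be technical. In bulk RNA, fewer cells that express a gene and less RNA of it per cell cannot be told apart.

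Formyl peptide receptors bind peptides from bacteria and damaged mitochondria, and the complement receptors C5ar1 and C3ar1 bind the anaphylatoxins released when complement is activated. Chemokine receptors bind small secreted chemokines, and most of these receptors signal through the G protein alpha-i subunit to phosphoinositide 3-kinase gamma and the actin cytoskeleton. Ccrl2 is an atypical member of the family that binds chemerin without classical G protein signalling. Monocytes use Ccr2 to leave the bone marrow, and Cxcr4, the receptor of Cxcl12, holds leukocytes in it.

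The cells carried the identity on their label. All 9 measured macrophage markers lay above the array median on every array, with a mean log2 level of 10.8 to 10.9 with hepcidin at 3 h, 10.8 to 11.0 with PBS at 3 h, 10.9 to 11.0 with hepcidin at 1 h and 10.8 to 10.9 with PBS at 1 h. Neutrophil markers, the other cells best known for formyl peptide receptors, averaged 4.93 to 4.95 with hepcidin at 3 h, 4.79 to 4.88 with PBS at 3 h, 4.91 to 5.14 with hepcidin at 1 h and 4.92 to 5.04 with PBS at 1 h. Of these 12 markers 3 lay above the array median on all arrays and 6 below it on all arrays. S100a8, S100a9 and Ly6g were among the low ones by their means of 4.22, 4.08 and 3.73. Others stood higher: Mmp8, Csf3r, Mpo and Elane had means of 8.30, 7.65, 5.42 and 5.29, and 6 of the 12 had a mean above the median gene. Limma called 0 of the 12 between hepcidin and PBS at either time, and their part in the results below was not tested. Of the 9 macrophage markers, 2 rose at 3 h (Cd14 and Spi1) and 2 fell (Mertk and Mrc1). Over all genes 2.80% were higher and 2.53% lower at 3 h, and 0.527% and 0.0324% at 1 h. Beside these shares, 0 calls among so few markers says little about the cells. Array medians lay between 4.84 and 4.94, Pearson's r between arrays of 1 group ran from 0.994 to 0.997.

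The promoters of the 4 receptors that passed the test between hepcidin and PBS are shown because 2 of them rose and 2 fell. Each window runs from 250 bases before to 50 bases after the RefSeq transcription start on mouse build GRCm38.p6, 5′ to 3′ on the gene's own strand. Capitals mark a match to a searched motif: NF-kB as GGGNNTTCC, GGGACTTTC or GGAATTTCC, AP-1 as TGANTCA, CRE as TGACGTCA, C/EBP as TTGCGCAA or TTNNGCAAT, and PU.1 as GAGGAAGT, on both strands.
Ccrl2 (chr9:111057469-111057768, minus strand): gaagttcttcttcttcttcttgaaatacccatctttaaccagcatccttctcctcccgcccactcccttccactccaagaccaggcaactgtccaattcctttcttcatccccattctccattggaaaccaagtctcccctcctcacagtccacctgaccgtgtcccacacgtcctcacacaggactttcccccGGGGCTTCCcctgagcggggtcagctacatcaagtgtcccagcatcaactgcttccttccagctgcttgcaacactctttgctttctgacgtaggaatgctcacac
Fpr2 (chr17:17887574-17887873, plus strand): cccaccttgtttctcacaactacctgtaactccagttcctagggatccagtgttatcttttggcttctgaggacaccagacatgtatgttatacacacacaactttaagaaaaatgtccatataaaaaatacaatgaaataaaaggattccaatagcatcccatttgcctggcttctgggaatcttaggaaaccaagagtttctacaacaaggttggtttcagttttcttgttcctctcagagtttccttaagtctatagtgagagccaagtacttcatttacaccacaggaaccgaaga
Cxcr4 (chr1:128592250-128592549, minus strand): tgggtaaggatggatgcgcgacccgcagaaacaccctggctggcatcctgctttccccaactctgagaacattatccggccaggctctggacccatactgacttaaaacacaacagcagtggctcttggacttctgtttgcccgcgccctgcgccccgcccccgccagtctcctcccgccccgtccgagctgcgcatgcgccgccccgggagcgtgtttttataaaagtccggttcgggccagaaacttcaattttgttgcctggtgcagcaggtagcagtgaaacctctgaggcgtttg
Ccr2 (chr9:124101933-124102232, plus strand): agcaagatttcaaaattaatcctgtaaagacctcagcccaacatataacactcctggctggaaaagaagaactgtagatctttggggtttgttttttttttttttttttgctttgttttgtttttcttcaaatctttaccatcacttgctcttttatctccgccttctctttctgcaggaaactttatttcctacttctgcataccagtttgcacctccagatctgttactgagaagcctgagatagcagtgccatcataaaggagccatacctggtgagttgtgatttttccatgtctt

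Only Ccrl2 of these 4 held a match: GGGGCTTCC, which fits the first NF-kB pattern, starts at position -56 from the annotated start of its most upstream window. That pattern occurs in 5.82% of 32851 RefSeq windows of this length, and any of the 3 NF-kB patterns in 6.46%. Ccrl2 has 3 windows, and the other 2 held no match. Among the remaining receptors, C3ar1 held an AP-1 match (TGACTCA at position -22), a pattern found in 7.81% of windows, and C5ar1, Ccr1 and Cx3cr1 held none. A match is a run of letters and not a shown binding site. CRE was found in 1.79% of all windows, C/EBP in 2.3% and PU.1 in 3.2%. Ccrl2, Cx3cr1, Ccr1 and Ccr2 all lie on chromosome 9.

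Hepcidin split the family by 3 h. Fpr2 and Ccrl2 rose, Ccr2 and Cxcr4 fell, and C5ar1, C3ar1, Ccr1 and Cx3cr1 did not pass the threshold, an adjusted p under 0.05 in limma over all 24675 genes. That is 2 of 8 higher, where 2.80% of all genes were higher, and 2 of 8 lower, where 2.53% were lower. At 1 h Ccrl2 alone passed, 1 of 8 higher against 0.527% of all genes and 0 lower against 0.0324%. The receptors and gene lists were chosen with earlier results known, so such counts, here and below, are a description and not a test. All 8 receptors had a mean above the median gene, while the shares over all genes include genes near background. Fpr2 had such a mean only through hepcidin at 3 h (7.22), its other group means lying between 3.81 and 4.62. The median log2 difference over the 8 receptors was 0.18 at 3 h and 0.08 at 1 h, and over all genes it was 0.02 at 3 h and -0.0022 at 1 h. All values below are the deposited RMA values on the log2 scale, and each difference is hepcidin minus PBS unless said otherwise.

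**Figure D1:**
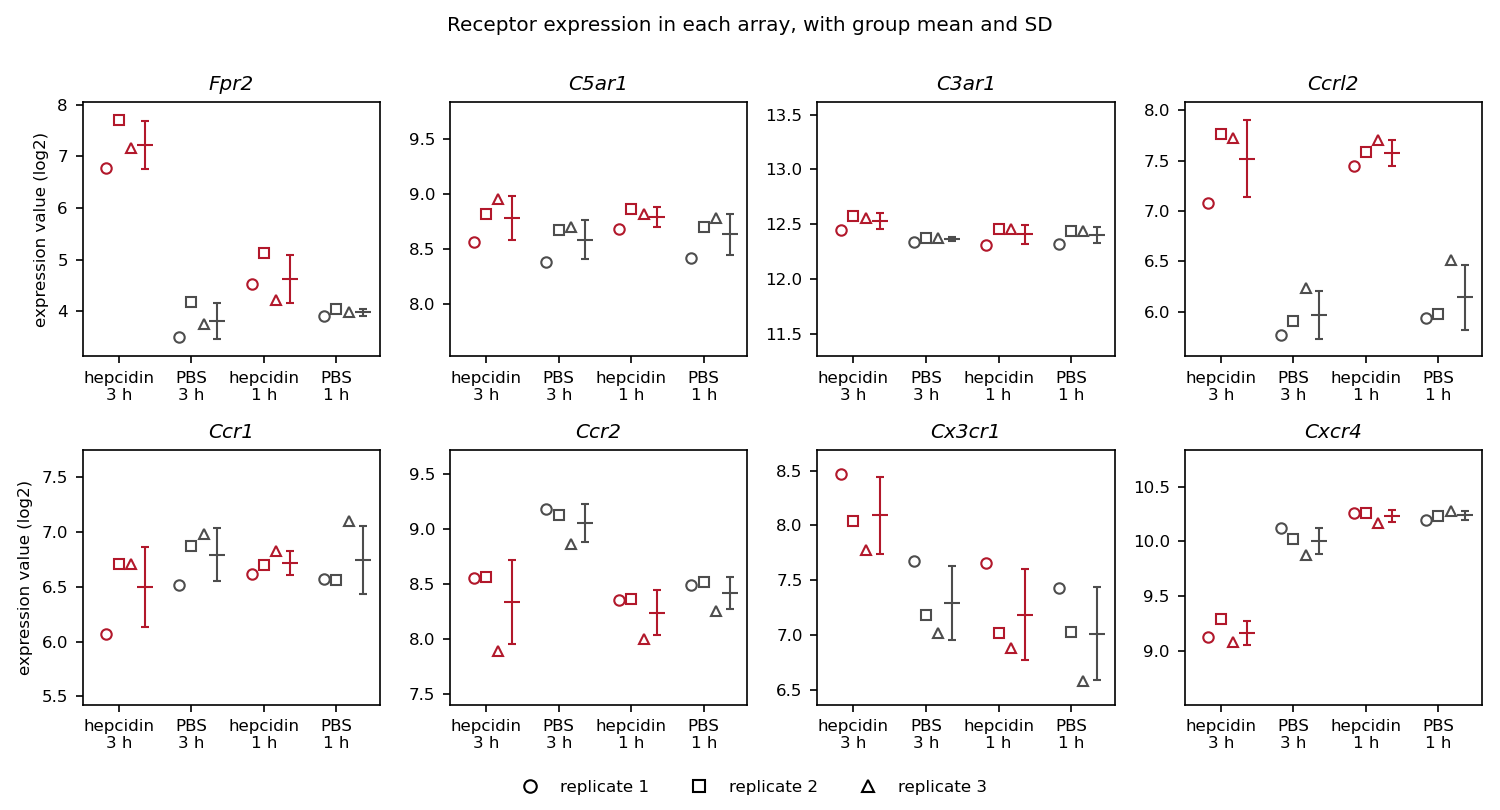
Each panel plots the log2 expression value of 1 receptor on the 12 arrays, with hepcidin in red and PBS in grey, the symbol showing the replicate number and the bar beside each group its mean and SD (n = 3). The 3 hepcidin arrays of 3 h lie from 6.78 to 7.71 for Fpr2, above every other array, and from 9.08 to 9.29 for Cxcr4, below every other array, and each axis spans at least 2 log2 units.

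Fpr2 (Entrez gene 14289), a formyl peptide receptor that also binds serum amyloid A and annexin A1, read 6.78, 7.71 and 7.16 in the hepcidin arrays of 3 h, against 3.50, 4.18 and 3.74 in the PBS arrays of 3 h. In the arrays of 1 h it read 4.52, 5.12 and 4.22 with hepcidin, against 3.91, 4.05 and 3.97 with PBS. At both times each hepcidin array lay above every PBS array, but only the 3 h arrays with hepcidin and 1 hepcidin array of 1 h exceeded their array median. The share of all genes whose groups do not overlap was not counted, so such separation, here and below, is a description. At 3 h Fpr2 rose by 3.41 on the log2 scale (SE 0.25, adjusted p = 3.89e-06 in limma), and the 1 h difference of 0.64 (SE 0.25, adjusted p = 0.649) did not pass. Because its PBS values lay below the array median, where background adds to the signal, no fold is given and the difference may read too small.

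The effects at the 2 times were tested against each other. The hepcidin effect at 3 h exceeded that at 1 h by 2.77 (SE 0.36, adjusted p = 0.00331). Since both PBS groups and 2 of the 3 hepcidin arrays of 1 h lay below the array median, where small differences can read too small, the size of 2.77 is not exact. Within the hepcidin arm Fpr2 was higher at 3 h than at 1 h by 2.60 (SE 0.25, adjusted p = 8.35e-05), while within PBS the difference was -0.17 (SE 0.25, adjusted p = 0.908). These contrasts share arrays, so they are views of the same values and not separate support.

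C5ar1 (Entrez gene 12273), the receptor of the anaphylatoxin C5a, showed no call. It averaged 8.78 ± 0.20 with hepcidin and 8.59 ± 0.18 with PBS at 3 h, and 8.79 ± 0.09 with hepcidin and 8.63 ± 0.19 with PBS at 1 h (SD, n = 3 each). The groups overlapped at both times. Its difference was 0.20 at 3 h, with a 95% interval of -0.08 to 0.47, and 0.16 at 1 h, with an interval of -0.11 to 0.43, so changes of up to about that size are not excluded by 3 arrays a group (adjusted p = 0.485 and 0.901 in limma).

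C3ar1 (Entrez gene 12267), the receptor of the anaphylatoxin C3a, read 12.45, 12.58 and 12.56 with hepcidin at 3 h, against 12.34, 12.37 and 12.37 with PBS at 3 h. These groups did not overlap, but the difference was small, at 0.17 (95% interval 0.01 to 0.32, adjusted p = 0.245 in limma). At 1 h it averaged 12.41 ± 0.09 with hepcidin and 12.40 ± 0.07 with PBS (SD, n = 3 each), a difference of 0.01 (interval -0.14 to 0.16). Both complement receptors therefore lacked a call at either time.

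Ccrl2 (Entrez gene 54199), the atypical chemerin-binding receptor, was the early gene of the family. It read 7.08, 7.76 and 7.72 with hepcidin at 3 h, against 5.77, 5.91 and 6.23 with PBS at 3 h. At 1 h it already read 7.44, 7.58 and 7.70 with hepcidin, against 5.94, 5.98 and 6.52 with PBS. The groups were apart at both times, and all 12 arrays exceeded their median.

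Ccrl2 rose 2.93-fold at 3 h (log2 difference 1.55, SE 0.20, adjusted p = 0.000382 in limma) and 2.69-fold at 1 h (1.43, SE 0.20, adjusted p = 0.00283). The 2 effects differed by 0.12, with a 95% interval of -0.49 to 0.72 (adjusted p = 0.934), which leaves room for a moderate change either way. Within hepcidin the 3 h arrays differed from the 1 h arrays by -0.05 (SE 0.20, adjusted p = 0.934). The call held at both times under every alternative run.

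Ccr1 (Entrez gene 12768), a receptor of Ccl3, Ccl5 and Ccl9, showed no call. Its arrays read 6.07, 6.71 and 6.71 with hepcidin at 3 h, against 6.52, 6.87 and 6.99 with PBS at 3 h. At 1 h it averaged 6.71 ± 0.11 with hepcidin and 6.74 ± 0.31 with PBS (SD, n = 3 each). The groups overlapped at both times, and the difference was -0.30 at 3 h (95% interval -0.71 to 0.12, adjusted p = 0.489 in limma) and -0.03 at 1 h (interval -0.44 to 0.38).

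Ccr2 (Entrez gene 12772), the Ccl2 receptor of inflammatory monocytes, read 8.56, 8.56 and 7.89 with hepcidin at 3 h, against 9.18, 9.13 and 8.86 with PBS at 3 h. At 1 h it read 8.36, 8.36 and 8.00 with hepcidin, against 8.49, 8.52 and 8.25 with PBS. The 3 h groups were apart, and the PBS arrays of 3 h lay above all other arrays, whereas the hepcidin arrays of 3 h overlapped those of 1 h. Ccr2 fell 1.65-fold at 3 h (-0.72, SE 0.17, adjusted p = 0.0286 in limma), and the 1 h difference of -0.18 (SE 0.17, adjusted p = 0.931) did not pass.

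The fall of Ccr2 stands beside a higher PBS level at 3 h. PBS arrays of 3 h exceeded those of 1 h by 0.64 (SE 0.17, adjusted p = 0.159), a difference that did not pass, and hepcidin arrays of 3 h exceeded those of 1 h by 0.10 (SE 0.17, adjusted p = 0.849). The effect at 3 h minus that at 1 h was -0.54 (SE 0.24, adjusted p = 0.482). The Ccr2 call is the least firm of the 4: its adjusted p was 0.101 without PBS 3 h replicate 1, 0.103 without PBS 3 h replicate 2, 0.0719 without hepcidin 3 h replicate 3 (where the difference was -0.50) and 0.0971 with only the 3 h groups in the fit. Over all the alternatives run, its adjusted p in limma at 3 h went from 0.000813 to 0.103.

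Cx3cr1 (Entrez gene 13051), the fractalkine receptor, read 8.47, 8.04 and 7.77 with hepcidin at 3 h, against 7.67, 7.18 and 7.02 with PBS at 3 h. At 1 h it read 7.66, 7.02 and 6.88 with hepcidin, against 7.43, 7.02 and 6.58 with PBS. The 3 h groups did not overlap, and the 1 h groups did. Its difference of 0.80 at 3 h (SE 0.26, 95% interval 0.24 to 1.37) did not pass over all genes (adjusted p = 0.114 in limma), and at 1 h it was 0.17 (SE 0.26, adjusted p = 0.962). The 3 h result depends on whether the replicate number enters the fit, as given in the section on dependence on the processing.

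Arrays within each Cx3cr1 group spread widely, with an SD of 0.35 for hepcidin and 0.34 for PBS at 3 h, and of 0.42 for both groups at 1 h. This spread followed the replicate number: replicate 1 was the highest and replicate 3 the lowest array in all 4 groups. Within hepcidin, the 3 h arrays exceeded those of 1 h by 0.91 (SE 0.26, adjusted p = 0.0737), and within PBS by 0.28 (SE 0.26, adjusted p = 0.826). Neither difference passed.

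Cxcr4 (Entrez gene 12767), the Cxcl12 receptor, read 9.13, 9.29 and 9.08 with hepcidin at 3 h, against 10.12, 10.02 and 9.88 with PBS at 3 h. At 1 h it read 10.26, 10.26 and 10.17 with hepcidin, against 10.20, 10.23 and 10.28 with PBS. The 1 h groups overlapped, and the hepcidin arrays of 3 h lay below all others. Cxcr4 fell 1.79-fold at 3 h (-0.84, SE 0.08, adjusted p = 3.39e-05 in limma) and differed by -0.01 at 1 h (SE 0.08, 95% interval -0.18 to 0.17).

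The effect on Cxcr4 at 3 h differed from that at 1 h by -0.83 (SE 0.11, adjusted p = 0.00429). Within hepcidin Cxcr4 was 2.09-fold lower at 3 h than at 1 h (-1.06, SE 0.08, adjusted p = 1.30e-05), and within PBS the difference was -0.23 (SE 0.08, adjusted p = 0.274).

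**Figure D2:**
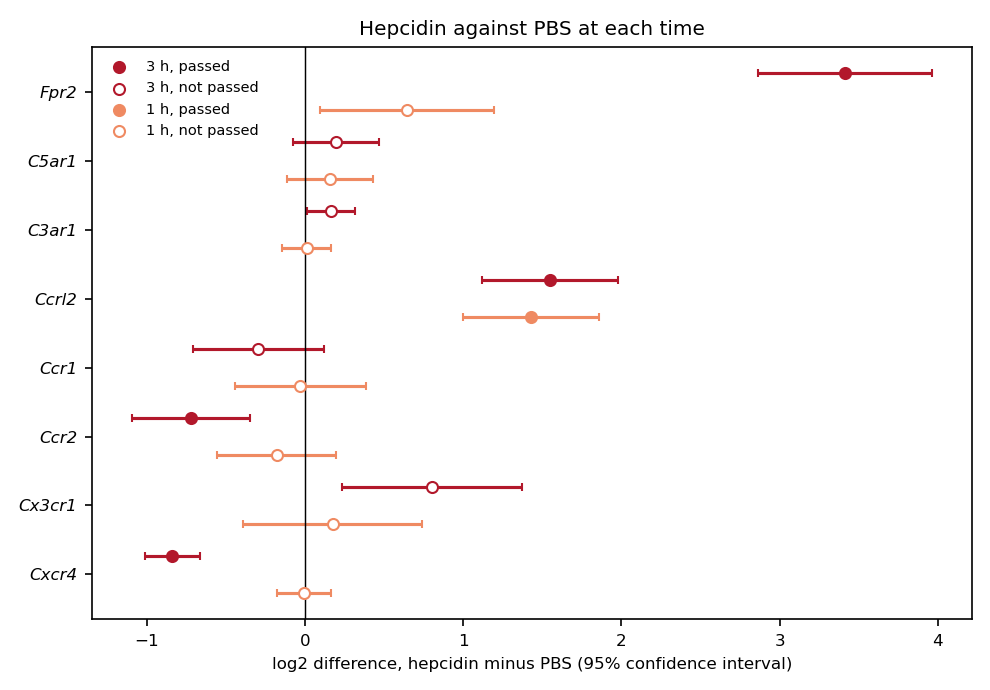
Points give the log2 difference of hepcidin minus PBS for each receptor at 3 h (dark red) and at 1 h (orange), bars the 95% confidence interval of limma, and filled points an adjusted p under 0.05 (3 arrays a group). Ccrl2 is filled at both times, with 1.55 at 3 h and 1.43 at 1 h, whereas Fpr2, Ccr2 and Cxcr4 are filled at 3 h only.

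Across the contrasts between times, the receptors that passed were Fpr2 and Cxcr4. Of 8, 1 had a larger and 1 a smaller effect at 3 h than at 1 h, where 0.523% and 0.507% of all genes did. In hepcidin arrays, 1 of 8 was higher and 1 lower at 3 h than at 1 h, where 2.44% and 2.61% of all genes were. In PBS arrays limma called 0 of 8 higher and 0 lower, where 0.207% and 0.243% of all genes were called. At an unadjusted p under 0.05, Ccr2 (0.00292) and Cxcr4 (0.0124) would have passed there, as would 2619 of the 24675 genes. The comparisons within hepcidin and PBS share their arrays with the others.

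**Figure D3:**
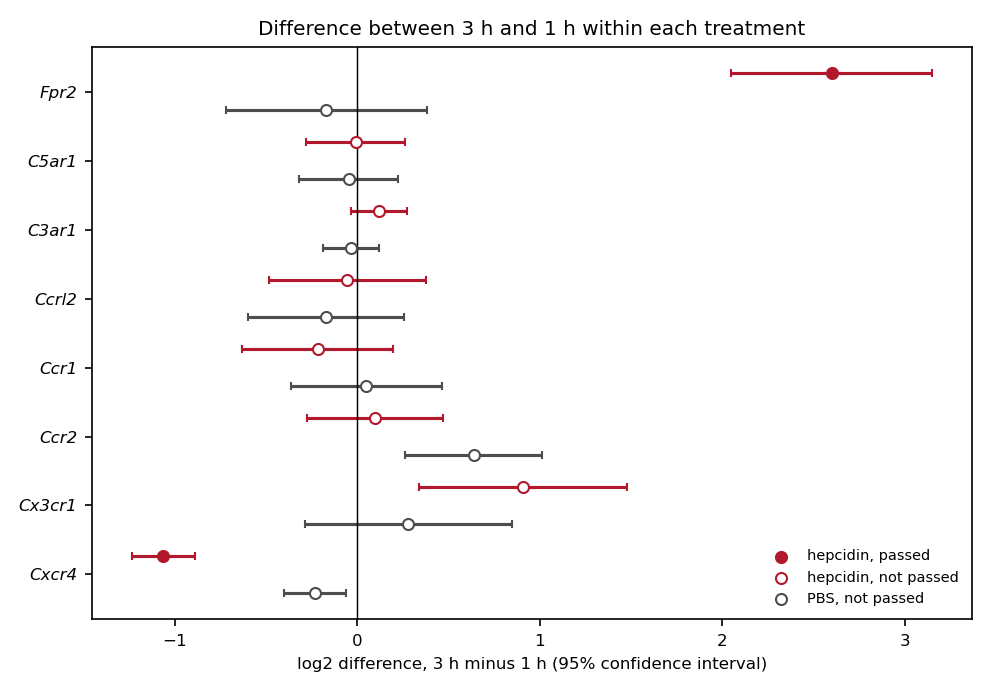
Points give the log2 difference of 3 h minus 1 h for each receptor within hepcidin (red) and within PBS (grey), with the 95% confidence interval of limma, and filled points have an adjusted p under 0.05 (3 arrays a group). Fpr2 at 2.60 and Cxcr4 at -1.06 are filled in the hepcidin arm, and in the PBS arm none is filled, Ccr2 standing at 0.64.

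Of 33 other chemoattractant receptors listed, 30 were measured and 11 of these had a mean above the median gene, so many sat near background. At 3 h limma called 0 higher and 1 lower, close to the 2.80% higher and 2.53% lower among all genes, with a median difference of 0.05 against 0.02 over all genes. The faller was Gpr183, the oxysterol receptor that guides immune cells in lymphoid tissue, at 7.83 ± 0.30 with hepcidin and 9.10 ± 0.11 with PBS (SD, n = 3 each), a log2 difference of -1.27 (SE 0.12, adjusted p = 3.37e-05). Limma called 0 of the 30 at 1 h. The counts at 3 h rest on the fit without the replicate number. With that number in the fit, 2 of the 30 were higher and 2 lower at 3 h. The share over all genes in that fit is not given here. Between the times, the effect on Gpr183 differed by -1.12 (SE 0.17, adjusted p = 0.00826), and within hepcidin the difference of 3 h minus 1 h was -0.73 (SE 0.12, adjusted p = 0.00326). Cxcr3, a receptor of interferon-induced chemokines, also fell there, with -0.48 (SE 0.11, adjusted p = 0.0294), a call lost without any 1 of the hepcidin 1 h arrays, without hepcidin 3 h replicate 1 or 3, and with only the hepcidin arrays in the fit (adjusted p up to 0.114).

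Several ligands of these receptors rose. Of 19 measured ligand genes, 11 had a mean above the median gene. At 3 h 5 of the 19 were higher and 0 lower, where 2.80% of all genes were higher and 2.53% lower, and the median difference was 0.23. At 1 h 2 were higher and 0 lower, where 0.527% of all genes were higher and 0.0324% lower, with a median of 0.08. The Ccr1 ligand Ccl3 averaged 12.55 ± 0.08 with hepcidin and 11.28 ± 0.07 with PBS at 3 h (1.26, SE 0.08, adjusted p = 6.78e-07), and rose by 0.68 at 1 h (adjusted p = 0.000454). Ccl4, a macrophage chemokine close to it in sequence, rose by 1.79 at 3 h (SE 0.17, adjusted p = 3.21e-05) and by 0.98 at 1 h (SE 0.17, adjusted p = 0.0172). The 1 h call of Ccl4 was lost when replicate 1 or 2 of the hepcidin arrays, or replicate 1 of the PBS arrays, of that time was left out (adjusted p up to 0.102). Saa3, an acute-phase protein of the serum amyloid A family, rose by 2.04 at 3 h (SE 0.38, adjusted p = 0.00692). Its arrays spread widely, with an SD of 0.34 with hepcidin and 0.54 with PBS.

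Ccl5 at 0.95 (SE 0.25, adjusted p = 0.0426) and Ccl9 at 0.32 (SE 0.07, adjusted p = 0.0190) completed the 5 at 3 h. Ccl5 lost its call without any 1 of the 3 h arrays or PBS 1 h replicate 3 (adjusted p up to 0.143), and with array weights. Ccl9, named after its value had been seen, lost its call without PBS 3 h replicate 2 or 3 or hepcidin 3 h replicate 1 or 2 (adjusted p up to 0.0825), and with only the 3 h groups in the fit. Ligands of the receptors that fell were also looked up after their values had been seen. Ccl2, the main ligand of Ccr2, differed by 0.25 at 3 h (SE 0.17, adjusted p = 0.524) and by 0.60 at 1 h (SE 0.17, adjusted p = 0.329). Cxcl12, the ligand of Cxcr4, differed by 0.02 at 3 h (SE 0.14) and -0.04 at 1 h, with group means of 4.76 to 4.82, just below the median gene. Neither ligand passed against PBS, and Ccl2 fell within hepcidin between 1 h and 3 h (-0.77, SE 0.17, adjusted p = 0.0215). That call of Ccl2 was lost without any 1 of the hepcidin 1 h arrays and without hepcidin 3 h replicate 1 or 3 (adjusted p up to 0.0730).

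Genes of the signalling chain behind the receptors moved in both directions at 3 h. Of 30 measured, 4 were higher and 5 lower at 3 h, where 2.80% of all genes were higher and 2.53% lower. All 30 had a mean above the median gene, while the shares over all genes include genes near background. The median difference was -0.03, and limma called 0 at 1 h, with a median of -0.0093. Pik3r5, the p101 subunit of phosphoinositide 3-kinase gamma, averaged 11.49 ± 0.02 with hepcidin and 10.57 ± 0.04 with PBS at 3 h (0.92, SE 0.06, adjusted p = 9.78e-07). Its effect at 3 h exceeded that at 1 h by 0.74 (SE 0.08, adjusted p = 0.00124).

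The RGS proteins, which shut off G protein signals, were split. Rgs2 fell by 1.39 on the log2 scale (SE 0.12, adjusted p = 1.65e-05), Rgs1 fell by 1.15 (SE 0.21, adjusted p = 0.00584) and Rgs16 rose by 0.73 (SE 0.11, adjusted p = 0.00128). The other 5 calls, named after their values had been seen, were smaller. Rgs18 (-0.53), Rgs14 (-0.48) and the G protein subunit gene Gna13 (-0.33) fell, and Pik3r6 (0.44), another subunit gene of phosphoinositide 3-kinase gamma, and the arrestin gene Arrb2 (0.36) rose. Pik3r6 lost its call when any array of 1 h PBS or 3 h PBS, or hepcidin 3 h replicate 2 or 3, was left out (adjusted p up to 0.163). Rgs14 lost it without PBS 3 h replicate 2 and Gna13 without PBS 3 h replicate 3. With only the 3 h groups in the fit, Pik3r6, Gna13 and Arrb2 missed the threshold (adjusted p = 0.0574, 0.0510 and 0.0612 in limma). Pik3r6 also missed it with median centring (0.0636) and with the replicate number in the fit (0.0521).

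**Figure D4:**
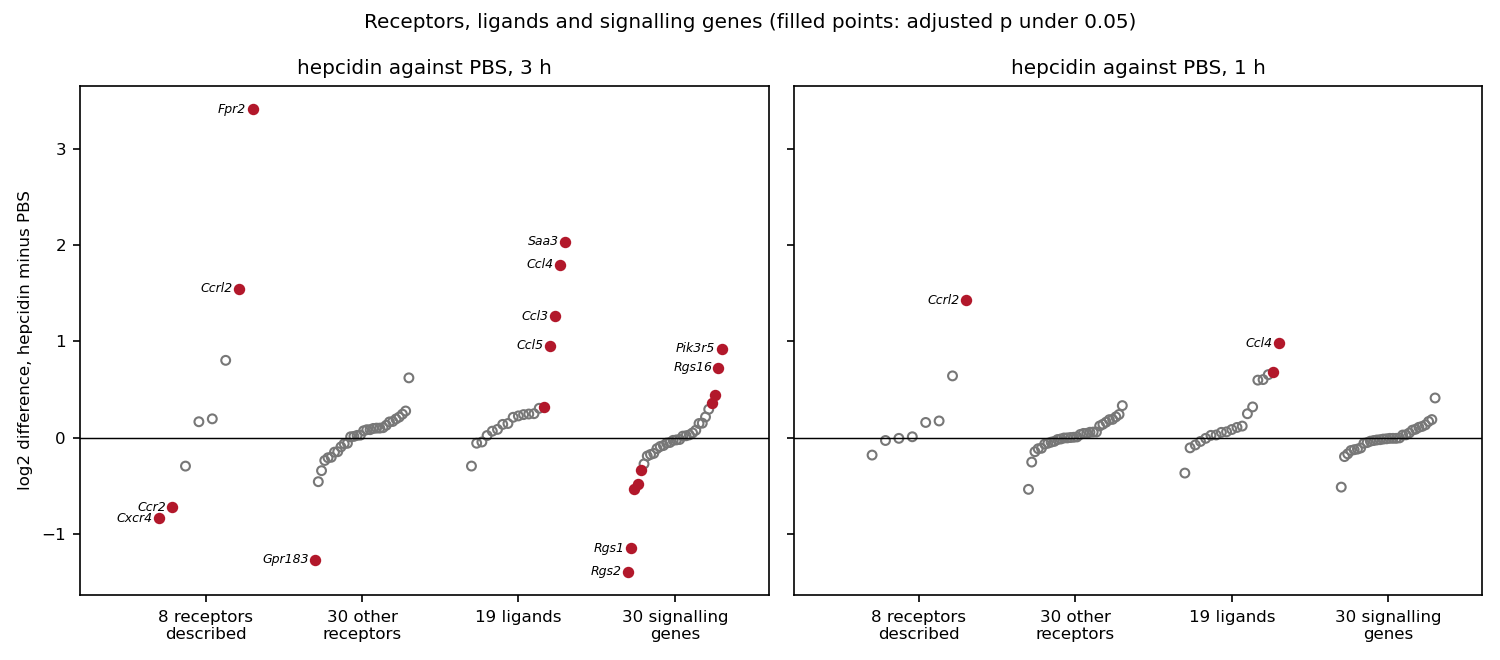
Every measured gene of the 4 lists is 1 point, placed by its log2 difference of hepcidin minus PBS at 3 h (left panel) and 1 h (right panel), sorted within its list, with filled points at an adjusted p under 0.05. At 3 h filled points run from Fpr2 at 3.41 to Rgs2 at -1.39, and at 1 h Ccrl2 at 1.43, Ccl4 at 0.98 and Ccl3 at 0.68 are filled.

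The genes whose values tracked each receptor over the 12 arrays are given as a description, since the arrays share 4 groups and a common normalization. These genes were picked on the same arrays, so group differences like those of the receptor follow from the choice. Fpr2 was matched most closely by Rilpl2 (Pearson r = 0.993), the neutrophil chemokine gene Cxcl3 (0.983) and Pik3r5 (0.983), each of which stood higher with hepcidin at 3 h (1.11, 3.74 and 0.92) than at 1 h (0.23, 1.03 and 0.19). Ccrl2 was matched by Skil (0.979), a repressor of TGF-beta signalling, with differences of 1.17 at 3 h and 1.22 at 1 h, and by Snx18 and Zswim4 (both 0.978). Cxcr4 was matched by Fbxo8 (0.984), Srpk2 (0.977) and the transcription factor gene Klf4 (0.976), with differences at 3 h of -0.30, -0.46 and -1.02.

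For the receptors with small or no calls the best matches were looser in most cases. Ccr2 went with Tlr7 (0.946), the receptor of single-stranded RNA, which differed by -0.44 at 3 h and -0.15 at 1 h, and then with Mppe1 (0.943) and Nabp1 (0.941). Cx3cr1 went with Shmt2 (0.971), a mitochondrial enzyme of one-carbon metabolism, Vcan (0.94) and Nde1 (0.937). C5ar1 went with Cyba (0.966), a subunit of the NADPH oxidase, Sash1 (0.957) and Sgms2 (0.936). C3ar1 went with Sh3bp4 (0.944), Pik3ap1 (0.933) and Tm9sf4 (0.928), and Ccr1 with Tmem202 (0.95), Gpam (0.943) and Ptgr2 (0.937).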

How the data were processed

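RNA was read on whole-transcript Affymetrix arrays. The deposited table holds 25429 probe sets in 12 columns, 1 per array. RMA and Partek stand in the submitters' processing notes, without versions or roles. These deposited values were taken as log2, the scale RMA returns, although no label states the base. Their genome build is not given in these sources.

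Symbols came from the platform annotation: 24675 probe sets had 1 symbol, 0 had several, and 754 are unnamed here. Group means were fitted in R 4.3.3 with limma 3.58.1 (8 residual and 4.11 prior degrees of freedom) in 5 contrasts, with Benjamini-Hochberg adjustment over all 24675 genes and no filter. The procedure was tested on simulated data. Promoters are RefSeq sequences (GRCm38.p6).

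The receptors and gene lists were chosen with earlier results of these data known. All receptors are named, of each other list up to 4 genes past the threshold in a comparison, and 3 genes most like each receptor. The lists of macrophage, neutrophil, dendritic, lymphocyte, mast cell and fibroblast markers check the cells. In dendritic (8), lymphocyte (7), mast cell (6) and fibroblast (6) lists limma called 0 between hepcidin and PBS at either time. Of these, 4, 7, 5 and 3 markers lay below the array median on all arrays, and 1, 0, 1 and 2 above it. Over all genes 2.80% were higher and 2.53% lower at 3 h, and 0.527% and 0.0324% at 1 h, so 0 calls in lists this short says little about the cells. The alternatives were 8 settings and each array left out in turn.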

Additional observations from a re-analysis of the deposited data

Results flagged for a closer look

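Between the times, 2 receptors differed in their response to hepcidin, by limma's test of the difference between the effects. For Fpr2 the effect at 3 h minus that at 1 h was 2.77 on the log2 scale, from 3.41 at 3 h and 0.64 at 1 h. The PBS arrays and 2 of the 3 hepcidin arrays of 1 h lay below the array median for Fpr2, where background adds to the signal, so its size is not exact. For Cxcr4 it was -0.83, from -0.84 at 3 h and -0.01 at 1 h. Both kept their call under every alternative run. The Fpr2 difference lay between 2.52 and 3.02 and the Cxcr4 difference between -0.90 and -0.78. For Fpr2 the filter to genes above the median mean is no support, since the gene passed it only through hepcidin at 3 h. With 3 arrays a group, no single array was tested for standing apart.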

How the results depend on the processing

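Under 8 other settings and with each array left out, the calls of Fpr2, Ccrl2 and Cxcr4 against PBS at 3 h and of Ccrl2 at 1 h held throughout, with log2 differences of 3.17 to 3.63, 1.43 to 1.77, -0.90 to -0.78 and 1.33 to 1.61 without 1 array. Among these settings was a filter to genes above the median mean of 4.87. Fpr2 averaged 7.22 with hepcidin at 3 h, 3.81 with PBS at 3 h, 4.62 with hepcidin at 1 h and 3.98 with PBS at 1 h. It passed that filter only through hepcidin at 3 h, so its call there is no support. Ccr2 at 3 h kept its direction (-0.84 to -0.50) and lost its call in the 4 cases given above. The number of receptors called without 1 array was 3 to 4 at 3 h, 1 at 1 h, 2 for the difference of effects, 2 to 3 within hepcidin (Cx3cr1 passed without hepcidin 1 h replicate 1, adjusted p = 0.0310) and 0 to 1 within PBS (Ccr2 passed without hepcidin 3 h replicate 3, adjusted p = 0.0495). Over all genes the counts without 1 array were 837 to 1287 at 3 h (1316 with all), 99 to 139 at 1 h (138), 141 to 234 for the difference (254), 721 to 1178 within hepcidin (1246) and 23 to 126 within PBS (111). With only the groups compared in the fit they were 805 at 3 h, 616 within hepcidin and 7 within PBS, a setting not run for the difference of effects, which uses all groups. Counts for the difference were 433 with a trended and robust prior and 412 with genes above the median mean. Within PBS they were 319 and 333 under these settings, 64 with median centring and 285 with array weights. Cx3cr1 within hepcidin passed with the trended prior (adjusted p = 0.0448), the filter (0.0442) and array weights (0.0402).

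Arrays of different groups share replicate numbers, but their deviations from the group means correlated at -0.0054 to 0.246 over 18 same-numbered pairs, 9 of them above 0.1, so the numbers were not taken as pairs. All 12 arrays did correlate best, on average, with the arrays of their own number, which is a hint from the data and not from the design. With the replicate number as a block, Cx3cr1 passed at 3 h (adjusted p = 0.000120), for the difference of effects (0.0201) and within hepcidin (9.39e-05). Ccr2 passed within PBS (0.0136), 1 receptor in place of 0, and 240 genes passed there.

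The sign turned only in comparisons where the receptor had no call. At 1 h, Ccr1 was 0.0011 with median centring and 0.033 with array weights, and Cxcr4 0.023 with median centring. In the difference of effects, C5ar1 was -0.0041 with median centring and -0.015 with array weights, and Ccrl2 -0.0015 with array weights. Within hepcidin C5ar1 was 0.0070 after a second quantile normalization. Without 1 array, the 1 h differences ran from -0.0320 to 0.0596 for C3ar1, -0.118 to 0.148 for Ccr1, -0.0634 to 0.383 for Cx3cr1 and -0.0256 to 0.0237 for Cxcr4. The difference of effects ran from -0.0648 to 0.14 for C5ar1 and -0.0661 to 0.34 for Ccrl2. Within PBS the range was -0.0476 to 0.23 for Ccr1, -0.15 to 0.0551 for C5ar1 and -0.30 to 0.0120 for Ccrl2. Within hepcidin it was -0.10 to 0.10 for C5ar1, -0.17 to 0.17 for Ccrl2 and -0.0225 to 0.32 for Ccr2. The cause was not tested. Signal near background limits Fpr2 in PBS.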

Other observations

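For several receptors the highest or the lowest array had the same replicate number in all 4 groups, a pattern noticed after the values had been seen. Cx3cr1 was highest in replicate 1 and lowest in replicate 3 of every group. Replicate 1 was the lowest array in every group for C5ar1, C3ar1 and Ccrl2, replicate 3 the lowest for Ccr2, and replicate 2 the highest for Fpr2. Thus 6 of 8 receptors had 1 number that was highest or lowest in all 4 groups, as had 13.3% of the 24675 genes tested. Ccr1 and Cxcr4 had no such number. All 8 receptors had a mean above the median gene, Fpr2 only through hepcidin at 3 h. The share over all genes includes genes near background, so the 2 are not a like comparison. Labels do not say what a shared number stands for, and its part in the spread was not tested.

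Between the times within hepcidin, 2 markers of other cells fell. They were Mpo, 1 of 12 on the neutrophil list, and Kit, 1 of 6 on the mast cell list. The other 5 mast cell markers lay below the array median on all arrays, with means of 2.55 to 4.44 against 5.60 for Kit. The fall of Kit therefore says little about mast cells. Over all genes 2.61% were lower and 2.44% higher in this comparison. Of the 9 macrophage markers 3 were lower and 2 higher. Whether the share of any cell type changed was not tested. Kit averaged 5.25 ± 0.06 at 3 h and 5.98 ± 0.09 at 1 h (SD, n = 3 each), a log2 difference of -0.73 (SE 0.08, adjusted p = 0.000126 in limma), and Mpo differed by -0.62 (SE 0.14, adjusted p = 0.0274 in limma).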
